A study of Ovis aries with 27 samples.

Results

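The genes of the early cellular response and of acute inflammation described here, FOS, JUNB, PTGS2, CXCL8 and C3, were followed on 27 arrays of fetal sheep heart septum. Their probes were found by the gene name, the RefSeq accession or the description that the array files give. This found 12 probes for the 5 genes among 15008 probes on the array, 4 for FOS and 2 for each of JUNB, PTGS2, CXCL8 and C3. CXCL8 stands in the files under its older name IL8. Of the 12 probes, 11 were well above background on at least 6 of the 27 arrays and were tested, as were 12778 probes in all, which cover 821 named genes. The genes were chosen by their high levels on 1 array of the older cortisol group and by their moving together over arrays, so both of these patterns are described without a test.

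Pregnant ewes received cortisol at 1 mg/kg/day or vehicle, and each array carried RNA from the septum of 1 fetus. The control group at 130 d of gestation (vehicle, n = 6) and the cortisol group at 130 d (n = 6) were sampled between 129 and 131 d after an infusion of about 10 d that began near day 120. The control group at 140 d (vehicle, n = 8) and the cortisol group at 140 d (n = 7) were sampled between 139 and 144 d, near term, after about 25 d of infusion from about day 115. Another label gives day 115 as the start for all ewes. Because the ages were separate cohorts with infusions of unequal length, a difference between 140 d and 130 d may belong to any of the 3, which cannot be told apart. Of the 7 ewes in the older control group, 1 carried twins, unidentified in the labels, and each of the 8 fetuses was counted as independent. Vehicle-infused ewes are the controls, and no group without an infusion was analysed here.

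FOS and JUNB encode subunits of AP-1, a dimeric transcription factor whose genes are transcribed within minutes of a stimulus such as stretch, ischemia, growth factors or handling of a tissue, and whose transcripts are short-lived. PTGS2 encodes the inducible cyclooxygenase that makes prostaglandin H2, CXCL8 encodes interleukin-8, a chemokine that attracts neutrophils, and C3 encodes the central component of the complement cascade and is induced by inflammatory cytokines. Glucocorticoids such as cortisol are known to restrain PTGS2 and CXCL8 in many cell types, partly by opposing AP-1 and NF-kappa-B.

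The probes decide which transcript a value stands for, so their sequences are given first, as in the array files, 5′ to 3′. Capitals mark bases that also occur in another probe of the same gene. Each probe has 60 bases, of which all 60 or a stretch of 30 are shown. The first probe named for each gene is the one with the highest mean level over all arrays, and it carries the values below unless another is named.
FOS A_70_P026731, first 30 bases: ccttgaggtcttttgacatgtggaaagtga
FOS A_70_P016316: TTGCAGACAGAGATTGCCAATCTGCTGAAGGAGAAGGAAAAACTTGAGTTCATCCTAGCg
FOS A_70_P016317: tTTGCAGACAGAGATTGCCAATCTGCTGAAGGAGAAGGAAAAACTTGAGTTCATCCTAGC
FOS A_70_P001561: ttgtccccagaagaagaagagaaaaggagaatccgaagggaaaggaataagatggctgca
JUNB A_70_P041671, first 30 bases: AAGGGACACGCCTTCTGACGCCCCTTATCC
JUNB A_70_P041672, first 30 bases: cAAGGGACACGCCTTCTGACGCCCCTTATC
PTGS2 A_70_P039256, first 30 bases: ctgaatctgggaatttggaatatgtgtgtt
PTGS2 A_70_P039257, first 30 bases: tgcgtctgttaggcagagggagaaaaatga
CXCL8 A_70_P039662, last 30 bases: ctggcctagtCTTGCCCTTATTATGCAATG
CXCL8 A_70_P039661, first 30 bases: CTTGCCCTTATTATGCAATGatgtgttgaa
C3 A_70_P041826: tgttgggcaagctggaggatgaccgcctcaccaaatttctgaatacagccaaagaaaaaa
C3 A_70_P041827: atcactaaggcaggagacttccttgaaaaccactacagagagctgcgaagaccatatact

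FOS A_70_P016316 and A_70_P016317 share 59 of their 60 bases, as do the JUNB probes, and the CXCL8 probes share 20. Probes that share bases are not independent measurements. The PTGS2 probes begin at positions 3301 and 3117 of their target transcript and the C3 probes at positions 664 and 576, with no shared bases. FOS A_70_P026731 was designed on an expressed sequence tag, from its position 730, and the other FOS probes on the FOS transcript, from its positions 657, 656 and 516. The files name no genome build, so no genome coordinates are given.

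Per array 77.0 to 87.0% of spots passed the scanner software's test for being well above background, no spot was saturated (0 spots), and the arrays lay on 5 slides. Levels are processed intensities divided by the array's 75th percentile, in log2, so that 0 is a probe at that percentile, and levels of different probes are not set against each other. MB, myoglobin, was the 1 of 15 cardiomyocyte markers with a named, tested probe, and it was at 182 to 456 times the 75th percentile on the 27 arrays. Septum is a mixed tissue, and in such RNA fewer cells of a type and less RNA per cell cannot be told apart. Array replicate 4 of the cortisol group at 140 d stood apart. Its values lay a median of 0.42 (log2) from the median array over all tested probes, against 0.129 to 0.382 for the other 26 arrays, and its mean Spearman correlation with the other arrays was 0.954, against 0.964 to 0.984. It was the highest of the 27 arrays for 15.7% of all tested probes and the lowest for 19.2%. It was not alone in this, since replicate 1 of the control group at 140 d was highest for 17.2% and lowest for 14.2%. Its 75th percentile intensity, 601.6, was the lowest of the 27. Replicate 4 of the control group at 130 d, which comes up below, did not stand apart in this way (0.184, 0.98 and 1.89% in the same order). Group means and differences are given with and without these arrays where they move them.

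FOS, the AP-1 subunit, was low in most fetuses and very high in 2. In the control group at 130 d its lowest, median and highest levels were -2.14, -0.95 and 4.78. They were -1.72, -1.54 and -0.02 in the cortisol group at 130 d and -1.9, -1.55 and -0.08 in the control group at 140 d. In the cortisol group at 140 d they were -1.84, -1.13 and 4.07. The 4 groups overlapped, and the 2 highest of the 27 values came from replicate 4 of the control group at 130 d and replicate 4 of the cortisol group at 140 d, with the next value at 0.06. The mean of the cortisol group at 140 d was -0.31 ± 2.03 (SD, n = 7) with its replicate 4 and -1.04 ± 0.67 (SD, n = 6) without it. That of the control group at 130 d was -0.06 ± 2.47 (SD, n = 6) with its replicate 4 and -1.02 ± 0.79 (SD, n = 5) without it. The groups in which no array was left out had means of -1.27 ± 0.65 (SD, n = 6) for cortisol at 130 d and -1.33 ± 0.59 (SD, n = 8) for control at 140 d.

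The other FOS probes were dimmer and put the same 2 arrays first and second. They were well above background on 19, 13 and 6 of the 27 arrays, and their correlations with the brighter probe over arrays were 0.98, 0.93 and 0.85. A_70_P016316 read -0.23 on replicate 4 of the control group at 130 d and -0.98 on replicate 4 of the cortisol group at 140 d, and A_70_P001561, which shares no bases with it, read -1.54 and -1.9. So the 2 high arrays did not depend on which FOS probe was read.

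JUNB, a partner of FOS in AP-1, stayed in a narrow range apart from the same 2 arrays. Lowest, median and highest levels were -3.13, -2.52 and -1.39 in the control group at 130 d, -2.99, -2.79 and -2.38 in the cortisol group at 130 d, and -2.87, -2.76 and -2.42 in the control group at 140 d. The cortisol group at 140 d ran from -2.97 through a median of -2.72 to 0.62. All groups overlapped. Replicate 4 of the cortisol group at 140 d was the highest array and replicate 4 of the control group at 130 d the second, the reverse of their order for FOS. The mean of the cortisol group at 140 d was -2.24 ± 1.28 (SD, n = 7) with its replicate 4 and -2.72 ± 0.24 (SD, n = 6) without it. The mean of control at 130 d was -2.45 ± 0.6 (SD, n = 6) with its replicate 4 and -2.66 ± 0.35 (SD, n = 5) without it. The other means were -2.78 ± 0.22 (SD, n = 6) for cortisol at 130 d and -2.74 ± 0.14 (SD, n = 8) for control at 140 d. The second JUNB probe followed the first (r = 0.99 over 27 arrays).

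PTGS2, the inducible cyclooxygenase, had lowest, median and highest levels of -3.77, -3.09 and -1.37 in the control group at 130 d and of -3.87, -3.51 and -3.2 in the cortisol group at 130 d. They were -4.9, -4.18 and -2.44 in the control group at 140 d and -4.6, -3.91 and 0.52 in the cortisol group at 140 d. The highest array was again replicate 4 of the cortisol group at 140 d, the next replicate 4 of the control group at 130 d, and replicate 1 of the cortisol group at 140 d followed at -1.72. Most older arrays lay below the younger ones, with overlap. The mean of the cortisol group at 140 d was -3.1 ± 1.85 (SD, n = 7) with its replicate 4 and -3.71 ± 1.02 (SD, n = 6) without it. For control at 130 d it was -2.85 ± 0.89 (SD, n = 6) with its replicate 4 and -3.14 ± 0.58 (SD, n = 5) without it. The other means were -3.53 ± 0.25 (SD, n = 6) for cortisol at 130 d and -3.99 ± 0.73 (SD, n = 8) for control at 140 d. The second PTGS2 probe was well above background on 3 arrays and was not tested.

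CXCL8, the neutrophil chemokine, had 1 array far above the rest on its brighter probe. Lowest, median and highest levels were -3.66, -3.3 and -2.98 in the control group at 130 d, -4.28, -3.83 and -3.3 in the cortisol group at 130 d, and -5.24, -3.75 and -3.4 in the control group at 140 d. In the cortisol group at 140 d they were -4.57, -3.68 and -0.45. The array of replicate 4 in that group was the highest of the 27 arrays, and replicate 4 of the control group at 130 d was the fifth at -3.25, within the range of its group. The mean of the cortisol group at 140 d was -3.41 ± 1.39 (SD, n = 7) with its replicate 4 and -3.9 ± 0.54 (SD, n = 6) without it. The other means were -3.31 ± 0.28 (SD, n = 6) for control at 130 d, -3.87 ± 0.35 (SD, n = 6) for cortisol at 130 d and -3.92 ± 0.61 (SD, n = 8) for control at 140 d. The second CXCL8 probe, well above background on 12 arrays, was also highest on replicate 4 of the cortisol group at 140 d, at -0.78 (r = 0.85 with the first). On that probe replicate 3 of the control group at 130 d was second at -2.86, and it was second on the first probe too, at -2.98.

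C3, the complement component, was spread widely within each group. Lowest, median and highest levels were -2.08, -0.46 and 0.41 in the control group at 130 d, -1.66, -1.07 and 0.85 in the cortisol group at 130 d, and -2.7, -2.15 and -0.14 in the control group at 140 d. In the cortisol group at 140 d they were -2.76, -1.74 and 2.29. The highest array was replicate 4 of the cortisol group at 140 d and the second replicate 4 of the cortisol group at 130 d, while replicate 4 of the control group at 130 d was the seventh at -0.77. The mean of the cortisol group at 140 d was -1.3 ± 1.71 (SD, n = 7) with its replicate 4 and -1.9 ± 0.7 (SD, n = 6) without it. The other means were -0.61 ± 0.92 (SD, n = 6) for control at 130 d, -0.83 ± 0.86 (SD, n = 6) for cortisol at 130 d and -1.94 ± 0.85 (SD, n = 8) for control at 140 d. The second C3 probe, with no shared bases, followed the first (r = 0.99).

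**Figure D1:**
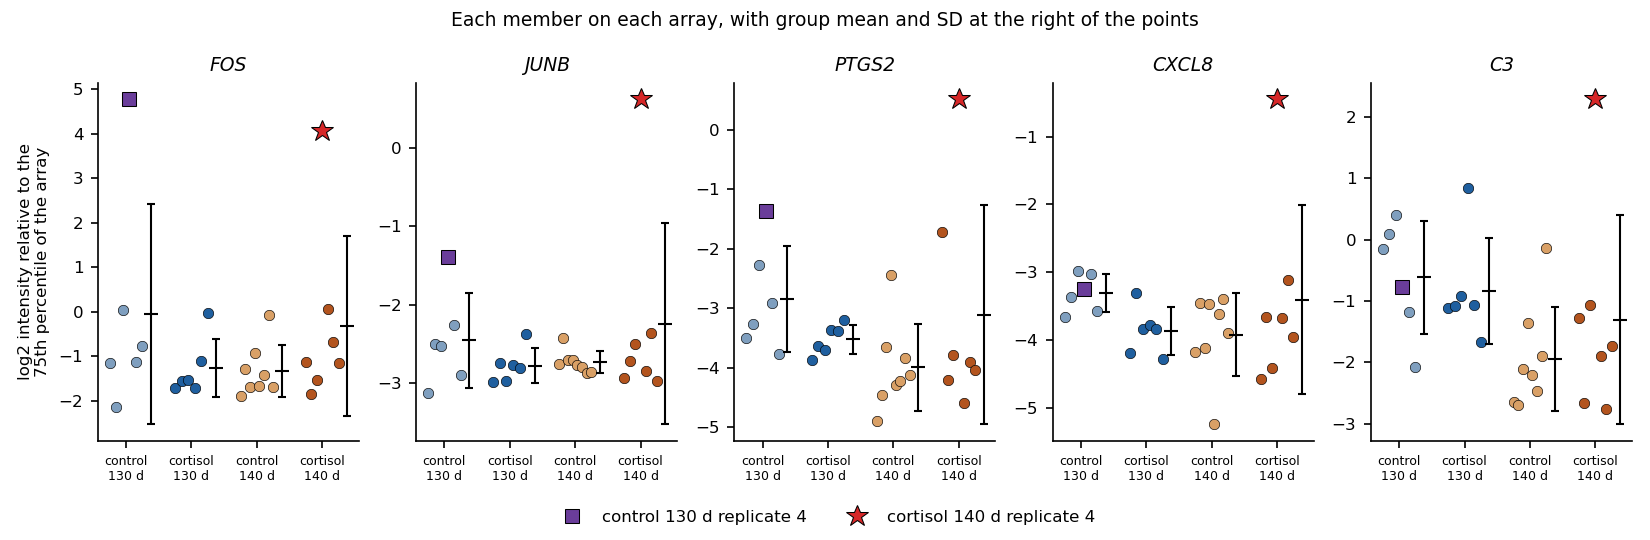
Log2 level of each of the 5 genes (y axis, relative to the array's 75th percentile) on the 27 arrays, by group along the x axis; each point is 1 array, and replicate 4 of the cortisol group at 140 d and replicate 4 of the control group at 130 d have their own symbols. The cortisol array is highest for JUNB, PTGS2, CXCL8 and C3 and second for FOS (4.07), where the control array is highest (4.78).

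The 2 arrays differed in which of the 5 genes were high. Replicate 4 of the cortisol group at 140 d was above the other 6 arrays of that group, on average, by 5.11 (log2) for FOS, 34.5-fold, by 3.34 for JUNB and by 4.23 for PTGS2, 18.8-fold. For CXCL8 the difference was 3.45, 10.9-fold, and for C3 it was 4.19, 18.3-fold. By the size of this difference the 5 genes ranked 12 (FOS), 31 (PTGS2), 33 (C3), 61 (CXCL8) and 66 (JUNB) of 12775 probes, and the median of all probes was 0.02. These values chose the genes and carry no test.

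On the other array, replicate 4 of the control group at 130 d, only the first 3 of them were high. It was above the other 5 arrays of that group, on average, by 5.81 for FOS, 55.9-fold, which ranked 2 of 12778 probes. JUNB was 1.27 higher, 2.41-fold, and PTGS2 1.78 higher, 3.43-fold, ranks 77 and 39. CXCL8 differed by 0.07 and C3 by -0.2, ranks 4416 and 9410, so the chemokine and the complement gene lay within the range of the group. Only 1.06% of all tested probes had these 2 arrays as their 2 highest. Among 821 named genes there were 9, and 3 of them are members, FOS, JUNB and PTGS2. The other 6 were ZFP36, which encodes a protein that speeds the decay of AU-rich transcripts, PTX3, a pentraxin of innate immunity, PTGS1, the constitutive cyclooxygenase, SLC15A1, a peptide transporter, MUC2, a mucin, and GGCX, the vitamin K-dependent carboxylase. PTX3 was 3.05 higher on the cortisol array and 0.61 higher on the control array than the other arrays of their groups. The control array's margin over the third highest array was narrow for ZFP36 (2.57 against 2.53), MUC2 (-5.51 against -5.56), GGCX (-3.17 against -3.23) and PTX3 (-3.96 against -4.09). There PTGS1 was at 0.48 against 0.28 and SLC15A1 at -2.83 against -3.51.

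The size of these differences on the cortisol array changed with the background correction, but not their sign. Under the other scalings and the normexp background correction the difference ran from 4.78 to 5.07 for FOS, from 2.72 to 3.29 for JUNB and from 3.01 to 4.16 for PTGS2. It ran from 2.38 to 3.36 for CXCL8 and from 3.79 to 4.16 for C3, with the lowest value of each from normexp. Both arrays lay on slide 3, together with 6 others.

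The related genes on the same 2 arrays were read from lists of pathway members and cell markers. On replicate 4 of the cortisol group at 140 d, 5 of the 7 measured genes of the AP-1 and immediate early list were highest of all 27 arrays, beside 15.7% of all tested probes. They were JUN, the partner of FOS (0.46 above the other 6 arrays), JUND (0.9), EGR1, a zinc finger factor of the same early wave (0.59), MYC (0.89) and ZFP36 (0.71). These differences were small beside the 5.11 of FOS. The list's median was 0.71, and the list named 37 genes, so 30 had no named, tested probe.

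Genes of the NF-kappa-B pathway were higher by more. The counts of genes highest on that array given next stand beside 15.7% of all tested probes. Of 5 measured, 4 were highest on that array: NFKBIA, the inhibitor of NF-kappa-B (1.9), CEBPB, a factor of acute phase genes (1.53), and the receptors TLR2 (1.7) and TLR4 (0.94). The list's median was 1.53. Of 9 cytokines, chemokines and adhesion genes 3 were highest there, IL18 (1.94), CXCL1 (0.51) and SELP, P-selectin (2.38). The probe named CXCL1 was very bright, with group means of 7.41 to 7.81, and whether it reads only CXCL1 was not tested. Of 6 prostaglandin genes besides PTGS2, 2 were highest there: PTGS1 (1.9) and PGFS, prostaglandin F synthase (1.19). The list of complement and the acute phase named 40 genes, of which 2 were measured. Both were highest there, CD14 (1.24), which is also a myeloid marker below, and TF (3.08, 8.47-fold). TF was read as transferrin from the gene name in the files, and whether its probe reads transferrin was not tested. Of the stress and hypoxia list, VEGFA was 2.37 higher and HSP90AA1 was lowest of all 27 arrays (-0.65). The glucocorticoid-responsive list named 15 genes, of which 4 were measured, and all 4 were highest on that array. They were TXNIP (1.32, 2.5-fold) and, from the lists above, NFKBIA, CEBPB and ZFP36. The median of that list was 1.43.

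Some markers of other cells moved with these genes on that array. Of 9 measured markers of myeloid cells and neutrophils, 5 were highest there, beside 15.7% of all tested probes. They were CD14 and the antimicrobial cathelicidins CATHL3 (3.64, 12.5-fold), CATHL1B (3.2, 9.18-fold), BAC5 (2.99) and SC5 (2.32). The summed level of the 9 markers was 16.4 times the 75th percentile, a sum that follows its brightest probes, here mostly the cathelicidins. The other arrays of the group had 1.16 to 5.64, and no other array more than 10.5. Of the other markers ITGB2 and FCER1G ranked 2, LYZ 5 and ITGAM 12 among the 27 arrays. Of 5 fibroblast markers 4 were highest there. The sum of the 5, mostly VIM and DCN, was 337 against 111 to 175 on the other arrays of the group. MB was the lowest of the 27 arrays, at 182 times the 75th percentile against 227 or more elsewhere. None of the 3 lymphocyte, 2 red cell and 1 smooth muscle markers was highest there (0 of each), and their summed levels of 0.285, 13.4 and 20.6 lay within the range of the group. Of 3 endothelial markers 1 was highest, PECAM1 (0.68). The sum of the 3, mostly PECAM1, was 6.58, the highest of the group, with the other arrays reaching 4.56. The part of these cell markers in the levels of the 5 genes was not tested. On replicate 4 of the control group at 130 d the myeloid sum was 6.67, within the range of its group (2.38 to 10.5), the fibroblast sum was 222, the highest of its group, and MB was at 227, the lowest of its group. There CCN1, a matrix protein of the early response, was highest of the 27 arrays (1.14), as were IL1B (0.49), the T cell gene CD3E (0.85) and HBB, beta globin (0.97).

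**Figure D2:**
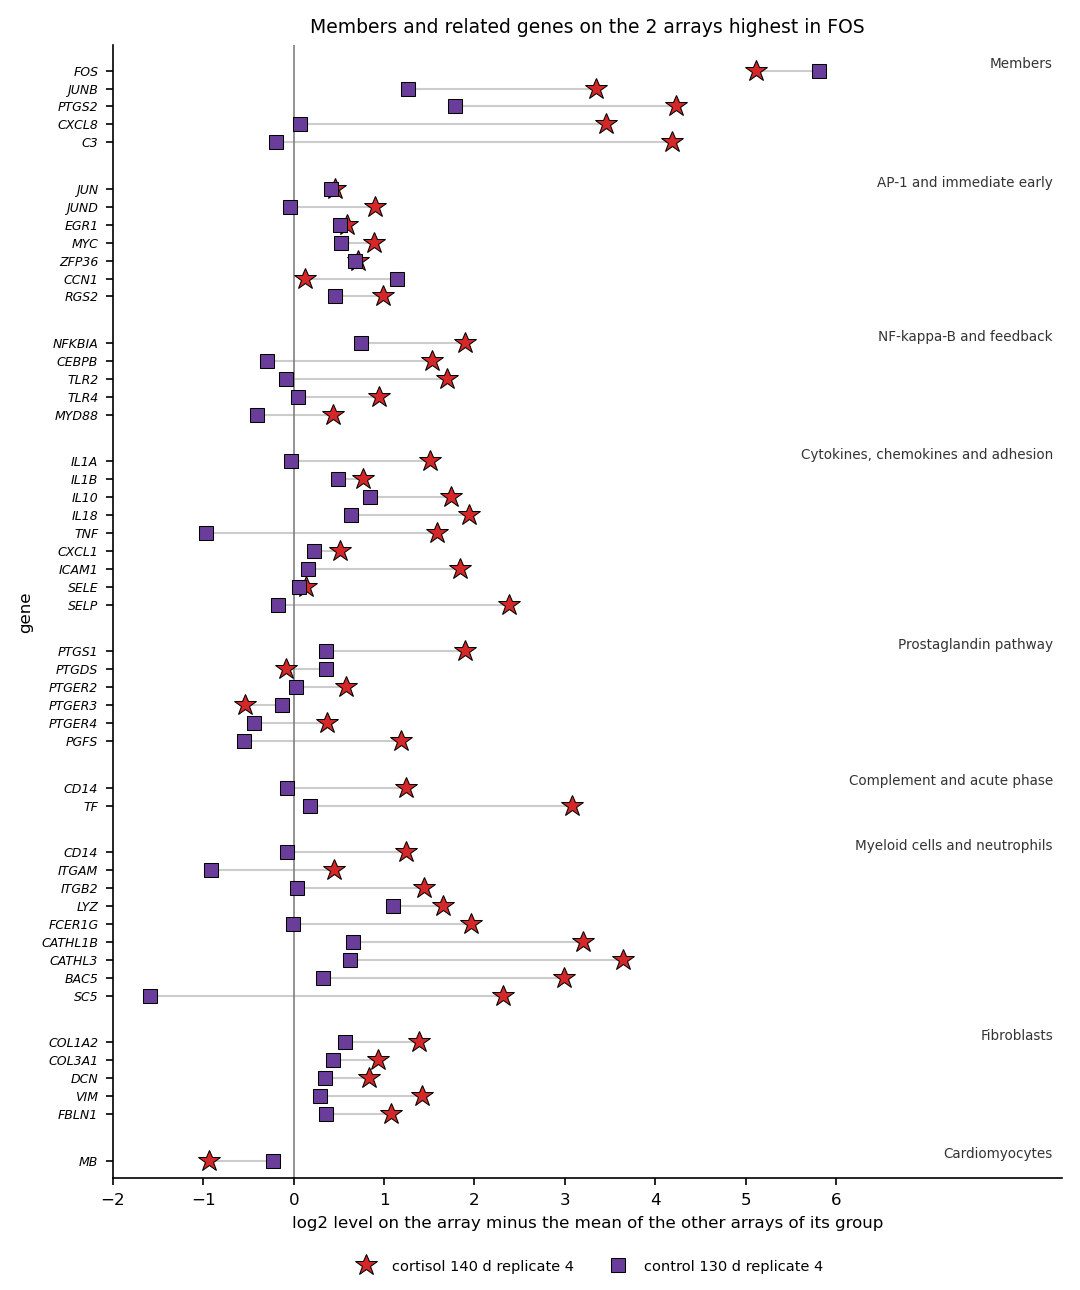
Log2 level on replicate 4 of the cortisol group at 140 d (stars) and on replicate 4 of the control group at 130 d (squares) minus the mean of the group's other arrays (x axis), for the 5 genes and for genes of 8 lists (y axis). FOS is over 5 on both arrays (5.11 and 5.81), whereas CXCL8 (3.45 and 0.07), C3 (4.19 and -0.2) and the cathelicidins lie far higher on the cortisol array.

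The 5 genes correlated over arrays, less so without those 2 arrays. Over 27 arrays the Pearson r of the 10 pairs ran from 0.40 to 0.80 with a median of 0.68, and the median Spearman rho was 0.34. Without replicate 4 of the cortisol group at 140 d the median r was 0.34 (0.01 to 0.72) over 26 arrays. Without both high arrays it was 0.16 (-0.13 to 0.52) over 25 arrays, with 8 of 10 pairs above 0. Leaving out only replicate 4 of the control group at 130 d gave a median r of 0.72. The arrays share slides and the labelling of whole tissue RNA, and no p is given, since the genes were chosen for this relation.

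The pairs behaved differently. FOS and JUNB had r = 0.80 over 27 arrays, 0.72 without the cortisol array and 0.15 without both, and their rank correlation over all 27 was 0.26. PTGS2 and C3 kept more of theirs, with r = 0.70, 0.50 and 0.52 in the same order, and rho = 0.67, 0.63 and 0.62. With each group centred on its mean, r for this pair was 0.68, 0.33 and 0.39. Within 130 d it was 0.25 uncentred, and within 140 d without replicate 4 of the cortisol group 0.43. Within age the median r of the 10 pairs was 0.36 at 130 d, and at 140 d it was 0.78 with and -0.04 without replicate 4 of the cortisol group. Within slides 2, 3 and 4 it was 0.04, 0.79 and 0.42, and in slide 3 without both arrays it was 0.5. With each group centred on its mean the medians were 0.64, 0.19 and 0.11 over 27, 26 and 25 arrays.

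**Figure D3:**
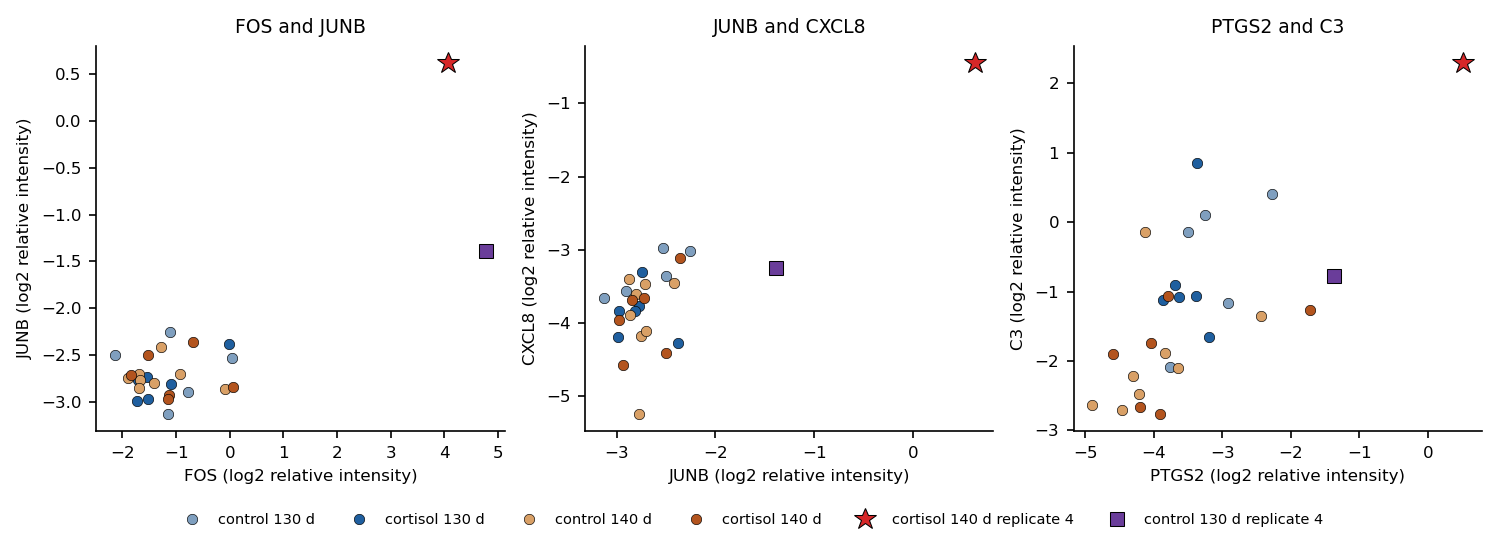
Log2 levels of pairs of the 5 genes plotted against each other, 1 point per array and coloured by group, with replicate 4 of the cortisol group at 140 d and replicate 4 of the control group at 130 d marked. For FOS and JUNB (r = 0.80 over 27 arrays, 0.15 over 25) the 2 marked arrays lie apart from the rest. PTGS2 and C3 keep a slope among the other arrays (r = 0.52, and 0.39 with each group centred on its mean).

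**Figure D4:**
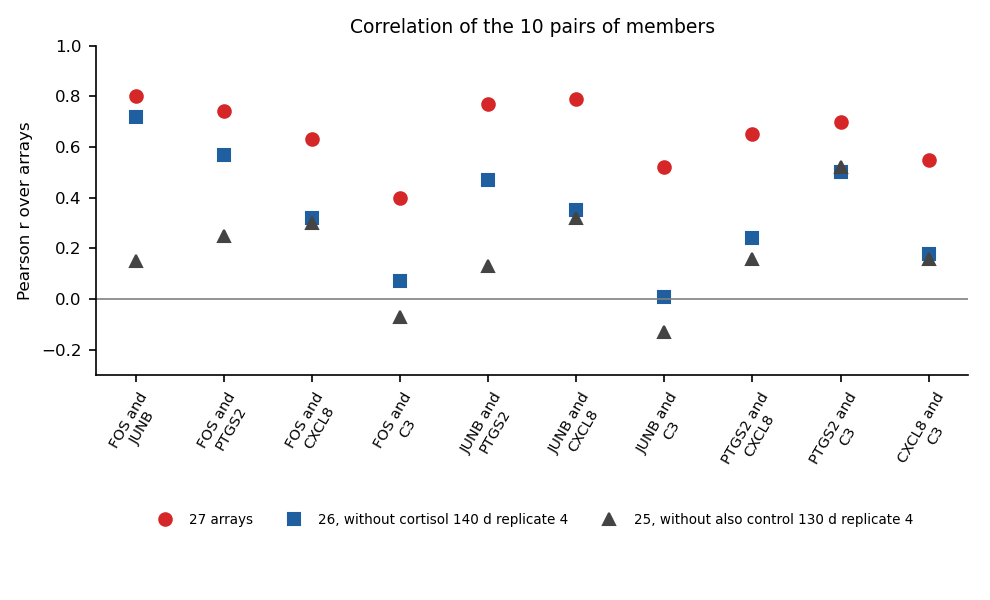
Pearson r (y axis) of each of the 10 pairs of the 5 genes (x axis) over 27 arrays, over 26 without replicate 4 of the cortisol group at 140 d, and over 25 without replicate 4 of the control group at 130 d as well. The median falls from 0.68 to 0.34 and 0.16 as the arrays are left out, and PTGS2 with C3 is the pair with the highest r over 25 arrays (0.52).

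The named genes most like each member were found by Pearson r of group-centred levels over the 27 arrays, among 804 genes, with the r over 26 and 25 arrays beside it. For PTGS2 they were PTGS1, the constitutive cyclooxygenase (0.86, 0.68 and 0.65), and TF, read as transferrin (0.85, 0.74 and 0.80). The third was BGN, the matrix proteoglycan biglycan (0.80, 0.71 and 0.70). For C3 they were CHI3L1, a chitinase-like protein of inflamed tissue (0.82, 0.74 and 0.74), IGF1, a growth factor (0.82, 0.67 and 0.67), and SERPINF1, the secreted factor PEDF (0.77, 0.69 and 0.72). These 6 kept an r of at least 0.65 without either high array.

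For the AP-1 genes and the chemokine more of the likeness went with the high arrays. FOS was most like SLC15A1 (0.77, 0.63 and 0.08), IL10, an anti-inflammatory cytokine (0.75, 0.59 and 0.55), and ITM2B (0.69, 0.46 and 0.53). JUNB was most like CD14, the endotoxin co-receptor of myeloid cells (0.79, 0.31 and 0.54), NFKBIA (0.79, 0.59 and 0.54) and the cell cycle inhibitor CDKN1B (0.78, 0.25 and 0.14). CXCL8 was most like CD14 (0.83, 0.51 and 0.52), WT1, a factor of the epicardium (0.73, 0.23 and 0.24), and PTGS1 (0.73, 0.22 and 0.22).

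C3 and PTGS2 had lower means in the older than in the younger controls, differences that were not called with all arrays. Of 39 alternative settings C3 was called in 4. PTGS2 was called in only 1, the fit without the array that stood apart. With all 27 arrays in the fit, 0 of the 5 genes were called between the control groups at 140 d and 130 d, beside 19.1% of all tested probes (limma, adjusted p under 0.05). Replicate 4 of the cortisol group at 140 d is in neither group, but it enters the estimate of spread that the 4 groups share. Without it 2 of 5 were called, both lower, beside 25.1% of all tested probes called and 12% called lower. With all arrays 9.35% of probes were called lower. C3 fell by 1.33 on the log2 scale (SE 0.43, 95% confidence interval -2.21 to -0.44, adjusted p = 0.0263 by limma), and 7 of 8 older controls were below the mean of the younger ones. PTGS2 fell by 1.15 (SE 0.40, interval -1.97 to -0.33, adjusted p = 0.0367 by limma), again in 7 of 8 arrays. In the fit of all 27 arrays the differences were the same, the SEs were 0.59 and 0.57, and limma's adjusted p was 0.112 for C3 and 0.157 for PTGS2.

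The other 3 genes did not pass limma's test in either fit. Without that array the differences were -0.61 for CXCL8 (adjusted p = 0.0713), -1.28 for FOS (adjusted p = 0.165) and -0.28 for JUNB (adjusted p = 0.254). All 8 older controls were below the younger mean for FOS and CXCL8, and 7 of 8 for JUNB, but the younger mean of FOS includes its high array. Without both high arrays the FOS difference was -0.31, that of JUNB -0.07 and that of PTGS2 -0.85 (limma, adjusted p = 0.573, 0.74 and 0.113), whereas C3 kept -1.36 (adjusted p = 0.0387). No gene separated the 2 control groups without overlap, as 5.72% of all tested probes did. The C3 difference was -2.64, -1.54 and -0.59 within slides 2, 3 and 4, and that of PTGS2 was -1.3, -1.23 and -0.96, with 2 younger and 1 or 2 older controls in each slide. With slide as a block the values were -1.59 for C3 and -1.07 for PTGS2 (limma, adjusted p = 0.0571 and 0.163, all 27 arrays). With the normexp background correction they were -1.06 and -0.39 (limma, adjusted p = 0.31 and 0.652), with the median of all tested probes at 0.15.

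Beside these falls, myeloid markers and cytokines were lower in the older controls. Of 9 measured myeloid and neutrophil markers 4 were called lower with all 27 arrays in the fit, beside 9.35% of all tested probes. They were ITGB2, a leukocyte integrin (-1.02), LYZ, lysozyme (-1.41), FCER1G (-1.16) and CATHL1B (-2.55). Without the array that stood apart 6 were called lower, beside 12% of all tested probes. The list's median was -1.16, against -0.01 over all tested probes, and its summed level was 2.38 to 10.5 in the younger and 0.744 to 4.09 in the older controls. Of 9 cytokines and adhesion genes 5 were called lower with all arrays, beside the same 9.35% of probes. They were IL1A (-1.68), IL10 (-1.76), IL18 (-1.5), TNF (-1.5) and ICAM1 (-1.33). The very bright CXCL1 probe rose (0.40), and the median of that list was -1.33. IL1A was well above background on only 10 of the 27 arrays and averaged -7.41 in the older controls, so the size of its fall is uncertain. The red cell genes HBB (-2.0) and AHSP (-3.26) fell, 1 of 5 fibroblast markers fell (COL3A1, -0.59), and MB rose (0.48). The part of these cells in the falls of C3 and PTGS2 was not tested.

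Few of the nearer relatives of the 5 genes passed the test. With all arrays none of 7 AP-1 and immediate early genes, 5 NF-kappa-B genes, 6 prostaglandin genes, 4 glucocorticoid-responsive genes or 2 complement and acute phase genes was called between the control groups by limma (0 calls, beside 19.1% of all tested probes called). The medians of these lists were 0.23, 0.00, -0.02, 0.35 and 0.11 in that order. The lists share NFKBIA, CEBPB and ZFP36. At an unadjusted p under 0.05, 4324 of all tested probes passed. Without the array that stood apart ZFP36 (0.36) rose and TLR2 (-0.54) and PTGS1 (-0.50) fell (limma). SOD2, a mitochondrial antioxidant enzyme in the stress list, rose in both fits (0.72).

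Cortisol did not separate from vehicle for any of the 5 genes at 130 d. There 0 of 5 genes and 0.0% of all tested probes were called by limma, with 455 probes at an unadjusted p under 0.05. The differences of cortisol from control were -1.21 for FOS (SE 0.88), -0.33 for JUNB, -0.68 for PTGS2, -0.56 for CXCL8 and -0.22 for C3, each with an adjusted p of 1 by limma. For PTGS2 all 6 cortisol arrays were below the control mean, and for CXCL8 5 of 6 were below the lowest control. The 95% interval was -1.93 to 0.57 for PTGS2 and -1.48 to 0.36 for CXCL8. Without replicate 4 of the cortisol group at 140 d in the fit, that of CXCL8 was -1.11 to -0.01, which leaves out 0, with an adjusted p of 1 by limma. Without both high arrays it was -1.13 to 0.04. Under the normexp background correction the differences of JUNB and CXCL8 changed sign, to 0.08 and 0.07, with the median of all tested probes at 0.2. Without replicate 4 of the control group the differences were -0.25 for FOS, -0.11 for JUNB and -0.38 for PTGS2. Within slides 2, 3 and 4 FOS differed by 0.01, -4.04 and 0.39, PTGS2 by -0.38, -1.71 and 0.05, and CXCL8 by -0.24, -0.68 and -0.76.

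At 140 d the mean of cortisol was above that of control for each of the 5 genes, by 1.02 for FOS, 0.50 for JUNB, 0.89 for PTGS2, 0.51 for CXCL8 and 0.64 for C3. Without replicate 4 the differences were 0.29 for FOS (95% interval -1.08 to 1.67), 0.02 for JUNB (-0.35 to 0.38), 0.29 for PTGS2 (-0.53 to 1.1), 0.02 for CXCL8 (-0.49 to 0.53) and 0.04 for C3 (-0.85 to 0.92). Limma's adjusted p lay between 0.988 and 0.996 for the 5 genes. Neither with nor without the array was any of the 5 genes or any tested probe called (0.0% of probes in both, 727 at an unadjusted p under 0.05 with all arrays). The change of the cortisol effect with age was not called for any of the 5 (0 of 5, 0.0% of probes, 743 at an unadjusted p under 0.05, limma). With all arrays it was 2.23 for FOS, 0.82 for JUNB, 1.57 for PTGS2, 1.07 for CXCL8 and 0.85 for C3. Without replicate 4 of the cortisol group it was 1.5, 0.34, 0.96, 0.58 and 0.26 in the same order. Without both high arrays it was 0.54, 0.13, 0.67, 0.57 and 0.29.

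**Figure D5:**
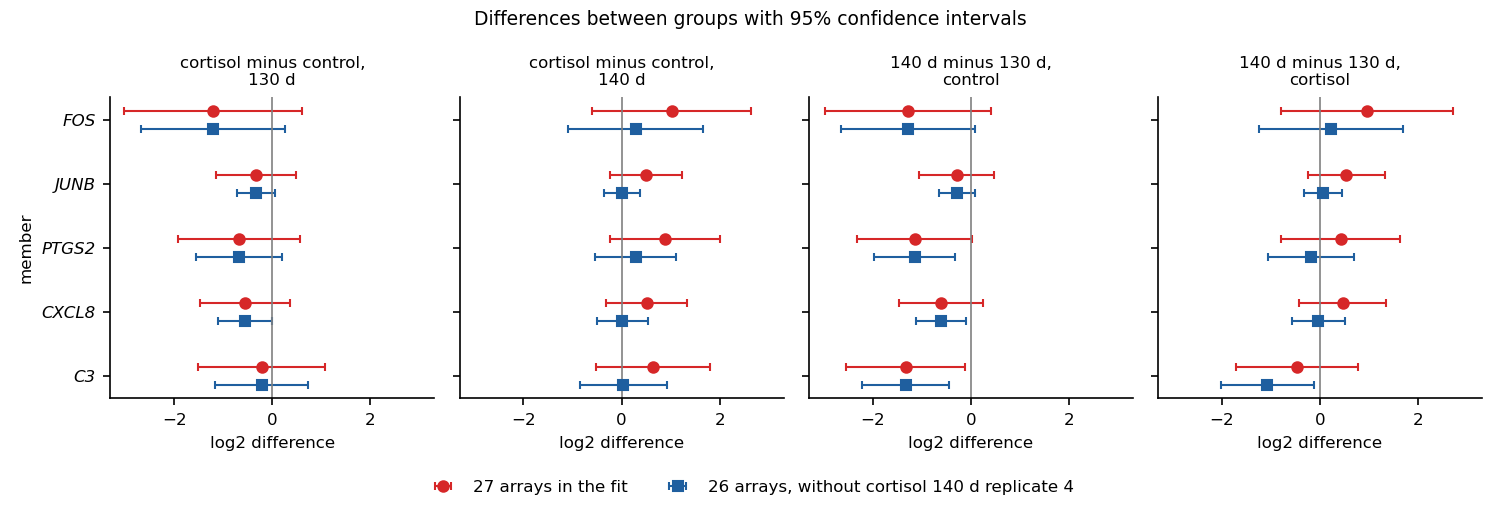
Log2 difference between groups (x axis) with its 95% confidence interval from limma for each of the 5 genes (y axis), with all 27 arrays in the fit and without replicate 4 of the cortisol group at 140 d. In the comparison of cortisol with control at 140 d the 5 differences move toward 0 without that array (0.02 to 0.29), and in the older against the younger controls the intervals of C3 (-2.21 to -0.44) and PTGS2 (-1.97 to -0.33) narrow.

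Between the cortisol groups at 140 d and 130 d, 0 of the 5 genes were called, beside 13.5% of all tested probes with all arrays and 18.9% without replicate 4 (limma). With all arrays the differences were 0.96 for FOS, 0.54 for JUNB, 0.42 for PTGS2, 0.46 for CXCL8 and -0.47 for C3. Without replicate 4 they were 0.23, 0.06, -0.18, -0.03 and -1.07 in the same order, so PTGS2 and CXCL8 changed sign. C3 had an interval of -2.02 to -0.12 and an adjusted p of 0.105 by limma. This comparison shares no arrays with that of the controls, in which C3 fell, although both use the same estimate of spread.

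Several regulators did rise between the cortisol groups. NFKBIA rose by 1.3 (SE 0.30, adjusted p = 0.0049 by limma) and CEBPB by 1.09 (SE 0.31, adjusted p = 0.0189), and without replicate 4 they rose by 1.03 and 0.87. Both are induced by glucocorticoids in other tissues and stand in the glucocorticoid-responsive list, with TXNIP, which rose by 0.90 (adjusted p = 0.0295 by limma) and missed the threshold without replicate 4 (adjusted p = 0.0504). Both groups here received cortisol, so they differ in age, cohort and infusion length. Between the control groups NFKBIA differed by 0.33, CEBPB by 0.65 and TXNIP by 0.1, none called (limma, adjusted p = 0.438, 0.12 and 0.824). The change of the cortisol effect with age was not called for these genes either (limma, adjusted p = 0.749, 0.974 and 0.838). Between the cortisol groups MYC rose by 0.63 (adjusted p = 0.0469 by limma) and also missed the threshold without replicate 4 (adjusted p = 0.0818). Of the cytokines IL1A (-1.72) and TNF (-1.33) fell and CXCL1 (0.32) rose, and of the stress genes SOD2 (0.63) rose and HSP90AA1 (-0.39) fell. IL1A, well above background on only 10 arrays, averaged -7.29 in the cortisol group at 140 d, so the size of its fall is uncertain here too. Without replicate 4 HSP90AA1 missed the threshold (adjusted p = 0.0681 by limma), and IL10 (-0.80) and IL18 (-1.08) fell as well (adjusted p = 0.0171 and 0.0353 by limma). Of the 9 myeloid markers 0 were called, by limma, in this comparison. No listed gene was called between cortisol and control at either age.

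Some lists had no call in any comparison with all 27 arrays, and their genes with the smallest p are given as values. They were PTGS1 (-0.50 between controls, adjusted p = 0.141 by limma) and PTGDS, a prostaglandin D synthase (0.43 between the cortisol groups, adjusted p = 0.172), and TF (0.79 between the cortisol groups, adjusted p = 0.32). Among cell markers they were KDR of endothelial cells (-0.54, adjusted p = 0.0532), the T cell gene CD3E (-0.86, adjusted p = 0.161), both between the cortisol groups, and CNN1 of smooth muscle (0.47 between cortisol and control at 140 d, adjusted p = 0.833). Without replicate 4 of the cortisol group at 140 d KDR fell (-0.63, adjusted p = 0.0178 by limma). IL6, IL1RN, CSF2, PTGFR, SERPINA1 and CP were on the array but were not well above background on at least 6 arrays.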

How the data were processed

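The deposited scanner files hold 1-colour spot intensity values that the authors extracted with Agilent's Feature Extraction software (version 10.1.1.1, per the submitters' processing notes). Per the file headers they are background-subtracted, with no normalization between arrays. A table of log2 values that the authors deposited (15142 spots, none of them controls) equals log2 of that intensity minus a constant per array (largest residual SD 2.1e-06). The authors' flags for outlier spots (0.065% of spots, left out) and for spots well above background were used, per the file headers. Total RNA was labelled with Cy3, per the labels' protocols. After removal of 536 control spots, intensity was taken as log2, the array's 75th percentile was subtracted, and spots of a probe were averaged. The number of arrays limits the precision. Probes well above background on at least 6 of 27 arrays were tested with limma 3.58.1 (lmFit, eBayes) in R 4.3.3, 4 groups in 1 fit, 2-sided, Benjamini-Hochberg over 12778 probes, called under 0.05. Of these, 83 had a missing value on some array, dropped for that probe only. The fit was tested on simulated data. A gene stands by its probe with the highest mean.

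The members and lists were chosen with earlier results of these data known. Named are the 5 members, the 3 genes most like each, list genes called in any comparison and, where a list has none, those with the smallest p. The genes with both high arrays as their top 2, those highest on 1 array, those called only without an array, and the dim genes were named after their values were seen. Lists cover AP-1, NF-kappa-B, cytokines, prostaglandins, complement, glucocorticoid response, stress and 7 cell types; 1 listed gene is not reported here. Alternatives were background correction, scaling, the authors' table, filters, slide or replicate block, only the groups compared, mean of probes and leaving out arrays.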

Additional observations from a re-analysis of the deposited data

Results flagged for a closer look

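Each of the 20 sets of values of 1 gene in 1 group was checked for an array whose gap to its nearest neighbour is large for the range of the group, and 9 had one. Chance gives this in about 1 in 20 groups that were not chosen by their values. The genes were chosen by their levels on replicate 4 of the cortisol group at 140 d, so that rate does not apply to the 4 sets below that concern it, which are a description. The genes are also correlated, so the 9 are not independent. For that array they were FOS at 4.07 (nearest 0.06), JUNB at 0.62 (nearest -2.36), CXCL8 at -0.45 (nearest -3.11) and C3 at 2.29 (nearest -1.07). For replicate 4 of the control group at 130 d it was FOS at 4.78 (nearest 0.05).

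The other 4 fell on other arrays. In the cortisol group at 130 d, FOS was highest on replicate 6 at -0.02 (nearest -1.1) and C3 on replicate 4 at 0.85 (nearest -0.91). In the control group at 140 d, JUNB was highest on replicate 2 at -2.42 (nearest -2.7) and CXCL8 was lowest on replicate 5 at -5.24 (nearest -4.18).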

How the results depend on the processing

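Of 970 values of the 5 genes under the alternatives, 5 gained a call, all in the comparison of the control groups. Of these, 4 were for C3 and 1 for PTGS2, each out of 39 alternatives. With all arrays 0 were called, so none could be lost. Differences that changed sign without a call were those of JUNB and CXCL8 at 130 d and of PTGS2 and CXCL8 between the cortisol groups. Between the control groups the number of the 5 genes called by limma was 0 with all arrays. It was 2, C3 and PTGS2, without cortisol_140d replicate 4, and 0 when any other single array was left out. It was 1 when only the 2 groups compared entered the fit, and 1 without both high arrays, a setting chosen after seeing the data. With the replicate number as a block it was 1, C3 (adjusted p = 0.0258 by limma). Same-numbered arrays correlated between -0.165 and 0.362 in their deviations from the group means. Arrays of unlike number were not compared, so this range cannot show whether the numbers pair the fetuses. The median r of the 10 pairs was 0.34 without cortisol_140d replicate 4, 0.72 without control_130d replicate 4 and 0.16 without both high arrays, against 0.68.

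Of all tested probes, normexp called 536 against 2443 between the control groups and 339 against 1720 between the cortisol groups. Of the calls between controls 51.1% were higher, and 70.6% with median scaling. Between the cortisol groups the share was 36.7% and 63.7%. Normexp moved the median of all probes by 0.19 for cortisol at 130 d and by 0.16 between controls. The difference of the cortisol effect had 1 call with the replicate block, 1 without control_130d replicate 5 and 2 without control_140d replicate 6, against 0. Dim probes of FOS, PTGS2 and CXCL8 limit what their second probes can show.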
